A study of Mus musculus with 6 samples.

Results

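Divergent promoters, stretches of DNA from which a gene on each strand is transcribed outward, were examined in open-chromatin maps of the mouse intestinal crypt. A pair was any 2 protein-coding genes on opposite strands, pointing away from each other, whose annotated 5′ ends lay 1000 bp or less apart on chromosomes 1 to 19 (GENCODE M21, GRCm38). Its region ran from one 5′ end to the other with 200 bp added on either side. The rule used positions only and found 734 pairs with 1448 genes, 6.96% of the 20807 protein-coding genes of these chromosomes. They were set beside 18126 single promoters, protein-coding 5′ ends with no other protein-coding 5′ end within 1000 bp, giving 18860 promoter regions in all.

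Divergent promoters work as 1 stretch of nucleosome-depleted DNA from which polymerase can be loaded toward both sides. They are known to be rich in CpG dinucleotides and poor in TATA boxes, and many serve genes that dividing cells need at all times, such as those of DNA repair, the mitochondrion and RNA processing. The epithelium of the crypt divides continuously.

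Open chromatin was mapped by ATAC-seq, in which the Tn5 transposase cuts and tags exposed DNA. There were 3 crypt samples of WT mice and 3 of mice lacking Arid3a (cKO, VillinCre-ERT2 with Arid3a fl/fl). ARID3A is a DNA-binding protein of the ARID family with a preference for A+T-rich sites. All animals, WT included, received tamoxifen on 3 days in a row and were collected 1 month after the first dose, and the labels give no age. Villin-driven Cre acts in the epithelium, so any other cells in a crypt preparation keep the gene. One list of peaks (intervals where tagged fragments exceed the local background) was given per sample, and the lists held 40492 to 58297 peaks. Read numbers were not used here, so the depth behind a single peak is unknown. From 2 to 4 peaks lay over the Arid3a gene in every list, WT and cKO alike, which does not check the deletion because the deleted part is not resolved in a peak list. Of 10 epithelial marker genes 8 had a promoter peak in all 6 samples, Krt20 had one in 1 WT sample and Olfm4 in none. None of 5 leukocyte and 4 fibroblast markers had one in any sample, and of 3 endothelial markers Kdr had one in 5 samples.

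Across the 734 pairs the 5′ ends lay a median of 128 bp apart (quartiles 66.3 and 240 bp, range 1 to 987 bp). In 306 pairs the distance was 100 bp or less, in 296 pairs 101 to 300 bp, and in 132 pairs more. Some pairs are not independent: 20 genes belonged to more than 1 pair, and the regions of 40 pairs overlapped that of another. The regions were richer in G+C than single promoters (median 62.8% against 55.0%) and less depleted of CpG, with a median observed/expected ratio of 0.829 against 0.501. By the cutoffs of G+C of at least 50% and a ratio of at least 0.6, 638 pairs (86.9%) and 7549 single promoters (41.6%) were CpG-rich.

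Short sequence matches, searched on both strands in the central 300 bp, differed in frequency between pairs and single promoters. The ETS-type match CCGGAAG lay in 28.3% of the pairs (208 pairs) and in 9.66% of single promoters. The gap remained among CpG-rich regions alone, at 31.0% against 17.9%. NRF1-type matches (GCATGCGC) were present in 6.68% against 3.15%, E2F-type matches (TTCCCGC) in 11.3% against 5.46% and YY1-type matches (AAGATGG) in 10.6% against 6.32%. Among CpG-rich regions NRF1- and E2F-type matches lay closer together, at 7.37% against 6.24% and 12.2% against 10.4%, while YY1-type matches were at 11.0% against 6.76%. NFY boxes (CCAAT) were held by 44.6% of pairs and 37.5% of single promoters, and by 45.3% and 36.2% of CpG-rich ones. GGGCGG, bound by SP and KLF factors, was held by 67.9% and 42.4%, but among CpG-rich regions alone by 72.7% and 76.6%. Matches to a TATA box (TATAAA) were rarer in pairs, at 4.50% against 12.7%, as were AP-1-type matches (TGAGTCA or TGACTCA) at 2.32% against 4.62%. Among CpG-rich regions alone these gaps were mostly gone, with TATA matches at 3.76% against 4.89% and AP-1-type matches at 2.35% against 2.38%. Matches to the A+T-rich ARID3 letters (ATTAAA or ATCAAA) lay in 11.4% of pairs and 20.2% of single promoters, and in 10.2% and 9.34% where only CpG-rich regions were counted. The CRE letters (TGACGTCA) lay in 4.50% and 2.20%, the E-box CACGTG in 10.9% and 7.40%, and the HNF4 letters (CAAAGTCCA or CAAAGTTCA) in 0.681% and 0.905%. Within CpG-rich regions these 3 were at 4.86% and 3.93%, 11.3% and 11.4%, and 0.470% and 0.384%. These shares describe letters in a window, not bound sites.

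The stretch between the 5′ ends is printed for 9 pairs whose values are given below. All sequences are GRCm38, read 5′ to 3′ on the plus strand from the 5′ end of the minus-strand gene to that of the plus-strand gene, and capitals mark matches to any of the letters above on either strand. The first 5 are 4 of the pairs with the strongest peaks and a well-known pair of mitochondrial translation genes.
Larp7/Zgrf1, chr3:127553349-127553489, plus strand: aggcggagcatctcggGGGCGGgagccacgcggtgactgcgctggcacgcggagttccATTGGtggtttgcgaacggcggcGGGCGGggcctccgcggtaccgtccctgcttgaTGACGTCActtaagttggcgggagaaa
Palb2/Dctn5, chr7:122132985-122133041, plus strand: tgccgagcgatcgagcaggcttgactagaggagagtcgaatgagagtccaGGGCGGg
Rpa1/Smyd4, chr11:75348324-75348433, plus strand: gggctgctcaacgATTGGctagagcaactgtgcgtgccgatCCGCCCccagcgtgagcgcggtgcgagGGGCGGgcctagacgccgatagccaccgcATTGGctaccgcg
Abce1/Anapc10, chr8:79711740-79711820, plus strand: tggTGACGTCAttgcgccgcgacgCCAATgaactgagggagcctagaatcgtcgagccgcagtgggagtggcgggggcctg
Mrps12/Sars2, chr7:28741820-28741992, plus strand: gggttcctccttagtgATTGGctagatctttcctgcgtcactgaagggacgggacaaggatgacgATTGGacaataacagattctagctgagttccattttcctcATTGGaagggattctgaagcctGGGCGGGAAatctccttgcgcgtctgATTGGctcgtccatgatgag

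A further pair is the one with the smallest unadjusted p between genotypes among those with a lower rank in cKO samples.
Utp15/Ankra2, chr13:98263041-98263074, plus strand: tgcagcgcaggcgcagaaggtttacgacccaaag

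The last 3 are the weakest pair called in all samples, the collagen IV pair and a histone pair.
Stap2/Mpnd, chr17:56005584-56005711, plus strand: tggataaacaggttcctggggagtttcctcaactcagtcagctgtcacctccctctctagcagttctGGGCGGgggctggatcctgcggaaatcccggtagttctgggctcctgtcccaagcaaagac
Col4a4/Col4a3, chr1:82586849-82586921, plus strand: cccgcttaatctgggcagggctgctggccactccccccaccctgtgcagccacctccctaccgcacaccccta
Hist1h2an/Hist1h2bp, chr13:21787218-21787461, plus strand: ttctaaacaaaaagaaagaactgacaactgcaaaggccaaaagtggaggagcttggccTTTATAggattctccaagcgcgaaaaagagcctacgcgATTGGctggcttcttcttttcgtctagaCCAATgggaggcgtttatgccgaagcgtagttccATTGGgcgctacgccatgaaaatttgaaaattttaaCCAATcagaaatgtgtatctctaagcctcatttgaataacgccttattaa

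The 5 strong or well-known pairs carried from 1 to 6 matches in these stretches. Larp7/Zgrf1 and Abce1/Anapc10 held the CRE letters, and Mrps12/Sars2 held 4 NFY boxes and a GGGCGG match that overlaps an E2F-type match on the other strand. Hist1h2an/Hist1h2bp also held 4 NFY boxes, beside a TATA match read in the direction of the H2A gene on the minus strand. Col4a4/Col4a3 held no match and 2 CG dinucleotides in 73 bases, against 18 in 141 bases in Larp7/Zgrf1.

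Divergent promoters were nearly always open. A region counted as called in a sample when a peak overlapped it by at least 1 base, and 691 of 734 pairs (94.1%) were called in all 6 samples. The pairs called numbered 691, 694 and 694 in WT 1 to 3 and 696, 692 and 694 in cKO 1 to 3. No peak overlapped 38 pairs in any sample, and 5 pairs were called in 1 to 5 samples. Of single promoters, 8932 (49.3%) were called in all 6 and 7719 (42.6%) in none.

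Per sample, 94.5% ± 0.24 of pairs and 53.5% ± 1.66 of single promoters were called (SD, n = 6), a difference of 41.0 percentage points. The share was higher for pairs in 6 of 6 samples (exact two-sided permutation test swapping the classes within each sample, p = 0.03125, the smallest that 6 samples allow, and 0.03125 after Benjamini-Hochberg adjustment over 4 class measures). Values lay between 94.1% and 94.8% for pairs and between 50.7% and 55.4% for single promoters, so the classes did not overlap. Composition moved with the class. Within CpG-rich regions the shares were 97.7% and 91.1%, a difference of 6.65 points that was also seen in 6 of 6 samples. Of the 96 pairs that were not CpG-rich 72.9% ± 1.47 were called, against 26.7% ± 1.78 of such single promoters. Long stretches without a peak in any list also bear on the size of this difference. Stretches of over 100 kb held 14 pairs and 4141 single promoters. Without them the shares were 96.3% and 69.3% and the difference was 27.0 points. By definition only uncalled regions lie in such a stretch, so leaving them out had to raise both shares. It takes out closed regions together with any that were not scored, so 27.0 points is no better estimate of the difference.

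Peaks over divergent promoters were also wider and ranked higher. Where several peaks overlapped a region, the one with the highest fold was used. The median width was 1269 ± 61.0 bp at pairs and 1100 ± 66.6 bp at single promoters (difference 169 bp, higher in 6 of 6 samples, exact permutation p = 0.03125, adjusted 0.03125). For pairs it was 1223, 1218 and 1256 bp in WT 1 to 3 and 1346, 1224 and 1345 bp in cKO 1 to 3. The widest values were those of cKO 1 and cKO 3, while cKO 2 lay among the WT samples. Fold, the pileup at a peak's summit over its local background, was turned into a percentile of its own list (100 is the highest). The median percentile was 88.9 ± 1.54 at pairs and 81.7 ± 1.502 at single promoters, a difference of 7.24 in the same direction in 6 of 6 samples (exact permutation p = 0.03125, adjusted 0.03125). Within CpG-rich regions these differences were 134 bp and 4.47 percentile points.

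The percentile of a pair spanned a median of 10.004 points over the 6 samples, against 13.4 at single promoters called in all 6. The scale ends at 100 and pairs ranked higher, so these ranges do not show a difference in stability, and they were not compared at matched rank. Of the pairs called in all 6, 181 (26.2%) stayed above percentile 90 throughout, against 18.6% of single promoters. Only 7 pairs (1.01%) stayed below percentile 50 in all 6 samples, against 4.18%.

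**Figure D1:**
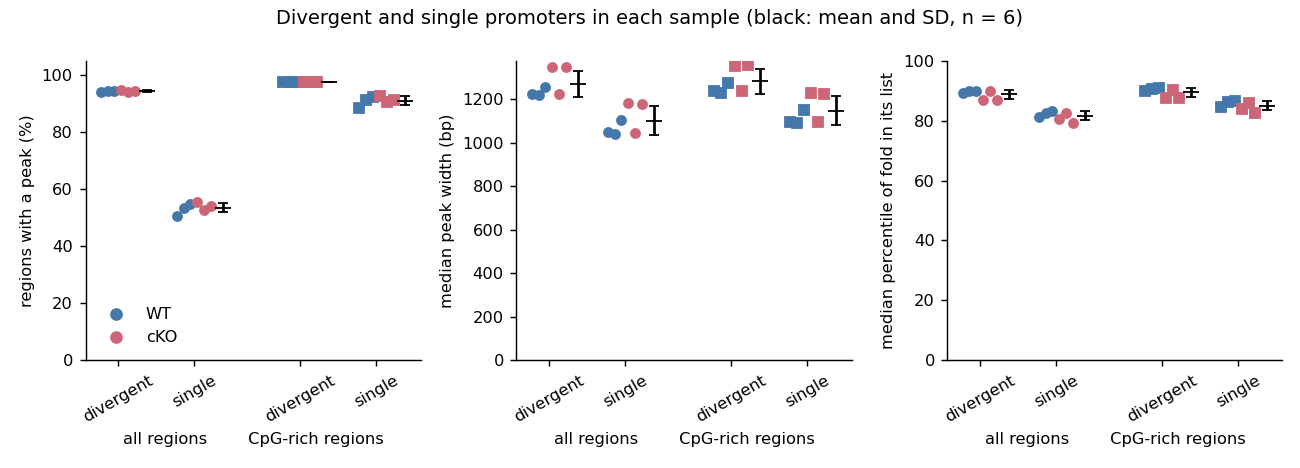
Share of regions with a peak (%), median peak width (bp) and median percentile of fold at divergent and single promoters, for all regions (circles) and CpG-rich regions (squares). Each point is a sample and the black bars are mean and SD over 6 samples. Divergent promoters lie above single promoters in every sample, and the gap in the share called narrows from 41.0 to 6.65 points among CpG-rich regions.

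A single peak usually covered both starts. In 95.37%, 94.96% and 95.39% of called pairs in WT 1 to 3, and in 96.0%, 94.9% and 96.1% in cKO 1 to 3, both 5′ ends lay inside 1 peak. The share was lower at longer distances: 99.9% ± 0.18 at 1 to 100 bp and 97.4% ± 0.48 at 101 to 300 bp, 92.4% ± 1.13 at 301 to 600 bp and 57.7% ± 4.99 at 601 to 1000 bp. Peaks were wider over the same bins, with medians of 1201, 1291, 1384 and 1552 bp. The median percentile was 90.3 ± 1.11, 88.8 ± 2.01 and 87.8 ± 2.30 in the first 3 bins and 80.6 ± 2.84 in the last. The bins differed in composition too: 92.5% of the closest pairs and 55.1% of the most distant were CpG-rich. The most distant bin holds 49 pairs, and 42 of them were called in all 6 samples.

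Separate peaks for the 2 genes were rare. Of called pairs 0.625% ± 0.217 held 2 or more peaks, against 0.183% ± 0.056 of single promoters (difference 0.442 points, higher in 6 of 6 samples, exact permutation p = 0.03125, adjusted 0.03125). This difference rested on distant pairs, whose regions were also longer than the 529 bp of a single promoter. With windows of 200 bp either side of each 5′ end it was −0.063 points. With 5′ ends 500 bp or less apart it was −0.157 points. No pair held 2 peaks in all 6 samples, and 9 pairs did in at least 1. Cfap52/Stx8, Fhod1/Slc9a5 and Urod/Hectd3, 542, 890 and 904 bp apart, held 2 peaks in 4 samples each. They were named after their values were seen, since no pair met the rule for naming.

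**Figure D2:**
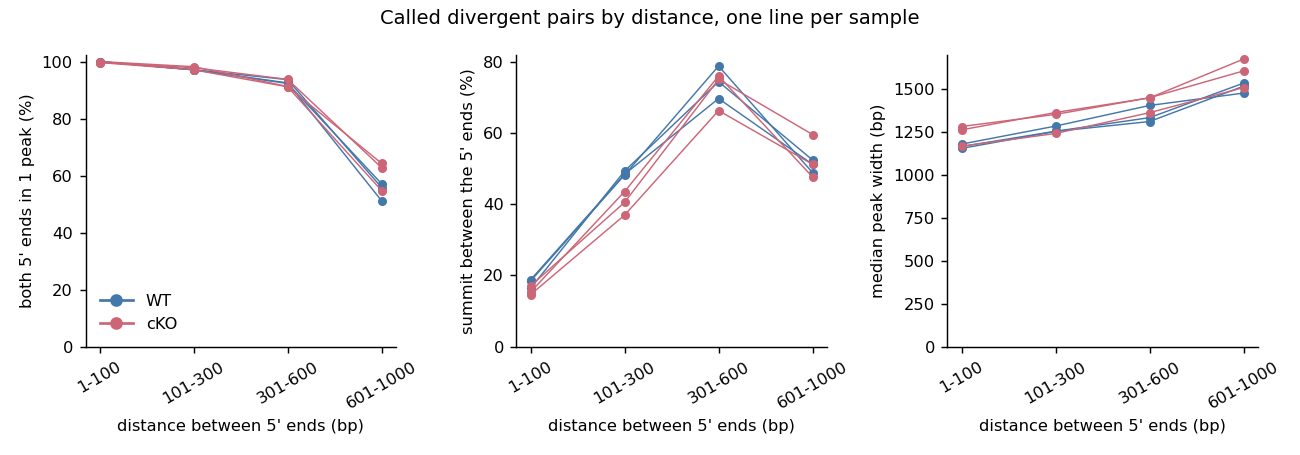
Share of called pairs with both 5′ ends in 1 peak (%), share with the summit between the 5′ ends (%) and median peak width (bp), by distance between the 5′ ends (bp). Each line is a sample. Both ends were in 1 peak at a mean of 57.7% of pairs in the most distant bin, where the mean of the median widths was 1552 bp.

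The summit, the position of highest pileup within a peak, was spread about evenly over both genes and the gap between them. It lay inside the minus-strand gene in 32.3% ± 1.59 of called pairs, between the 5′ ends in 36.5% ± 2.78 and inside the plus-strand gene in 31.2% ± 1.83 (n = 6). When inside a gene it lay a median of 62.8 bp ± 3.13 past the 5′ end. The nearest 5′ end was a median of 57.8 bp away, and 69.8% ± 0.78 of summits lay within 100 bp of one. The share between the 5′ ends was 16.8% for pairs 1 to 100 bp apart, 44.5% at 101 to 300 bp, 73.3% at 301 to 600 bp and 51.8% at 601 to 1000 bp. The gap itself is longer in the wider bins. Peaks reached 529 ± 27.7 bp into the minus-strand gene and 547 ± 33.0 bp into the plus-strand gene, with the longer reach on the plus-strand side in 6 of 6 samples. At single promoters the reach was 666 ± 38.6 bp into the gene and 381 ± 27.7 bp upstream, and among CpG-rich ones 677 and 424 bp. Their summits lay downstream of the 5′ end in 63.5% ± 1.84 of cases.

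The summit of a given pair was only moderately fixed. Over the 6 samples its SD had a median of 49.1 bp at pairs and 53.8 bp at single promoters. It lay between the 5′ ends in all 6 samples at 122 pairs, in none at 290 and in some at 279. Several pairs had the summit well inside a gene in every sample, as at Pinlyp/Xrcc1 (5′ ends 171 bp apart), where it lay 916 to 921 bp from the 5′ end of the minus-strand gene, far into Xrcc1, a scaffold of single-strand break repair. At Brca1/Nbr1 it lay 423 to 780 bp from the Brca1 5′ end, beyond the 194 bp gap. The 5′ end used here is that of a gene's longest annotated extent.

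**Figure D3:**
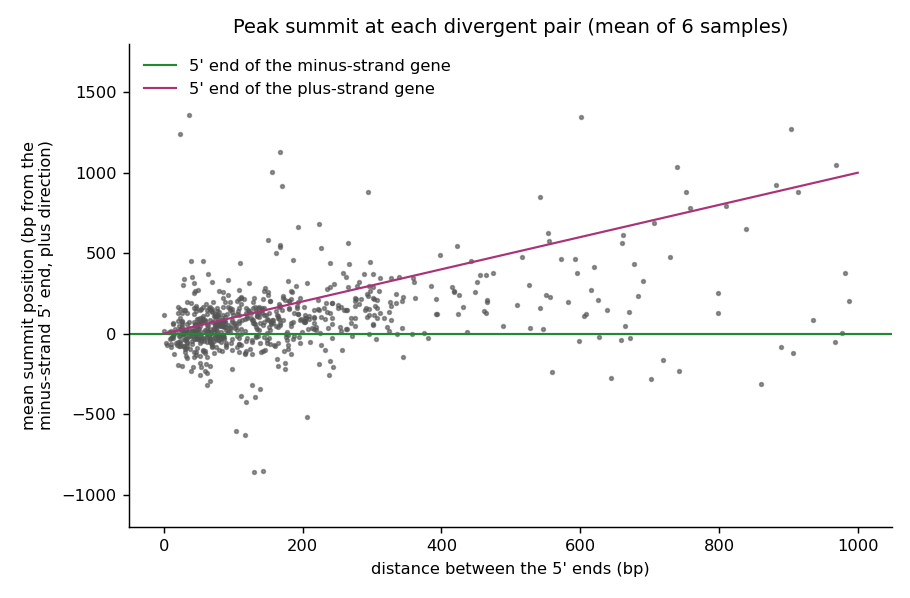
Mean summit position over 6 samples (bp from the 5′ end of the minus-strand gene, positive toward the plus-strand gene) against distance between the 5′ ends (bp), one point for each of 691 pairs called in all 6 samples. Points between the green and the purple line have their summit between the genes, and most others lie close outside them.

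The 5 highest-ranked pairs, by the highest minimum over the 6 samples, were Larp7/Zgrf1, Palb2/Dctn5, 1700029J07Rik/Ufsp2, Abce1/Anapc10 and Rpa1/Smyd4. Larp7, which binds the 7SK RNA, and Zgrf1, a DNA repair helicase, shared a peak at percentiles 99.7, 99.8 and 99.8 in WT 1 to 3 and 99.8, 99.7 and 99.9 in cKO 1 to 3, with folds of 15.5 to 20.5. Palb2, the partner of BRCA2 in homologous recombination, and Dctn5, a dynactin subunit, had percentiles of 99.9, 99.6 and 99.6 in WT and 99.6, 99.7 and 99.8 in cKO samples. The summit lay from 44 bp inside Palb2 to 25 bp into the 56 bp gap. 1700029J07Rik and Ufsp2, a protease that matures and removes the ubiquitin-like modifier UFM1, lay at 99.7, 99.8 and 99.9 in WT and 99.5, 99.8 and 99.6 in cKO samples. Rpa1, which coats single-stranded DNA, and Smyd4 lay between 98.9 and 99.8. Abce1, which recycles ribosomes, and Anapc10, a subunit of the anaphase-promoting complex, lay between 98.9 and 99.9. For these 5 pairs the WT and cKO ranges overlapped.

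Well-known pairs differed in rank. Of 15 textbook pairs looked up, the rule found 6. Mcm4/Prkdc, which encode a subunit of the replicative helicase and the catalytic subunit of DNA-PK with 5′ ends 466 bp apart, lay at percentiles 96.9, 96.2 and 97.7 in WT and 96.0, 98.4 and 97.6 in cKO samples. Mrps12/Sars2, a mitochondrial ribosomal protein and the mitochondrial seryl-tRNA synthetase, lay at 95.7, 96.9 and 97.2 in WT and 93.7, 97.0 and 97.0 in cKO samples. Atm/Npat, the DNA damage kinase and a coactivator of histone genes, lay between 90.3 and 98.6, with the lowest value in cKO 1. Brca1/Nbr1 lay between 74.3 and 89.1, also with the lowest value in cKO 1. Wrap53/Trp53 lay lower and varied more, at 65.7, 30.7 and 70.8 in WT and 55.5, 50.2 and 42.8 in cKO samples. Its summit fell up to 959 bp inside Wrap53 in 4 samples and in the gap in the other 2. Col4a4/Col4a3, chains of basement membrane collagen IV, lay at 63.2, 58.1 and 62.5 in WT and 72.0, 54.7 and 49.5 in cKO samples.

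The weakest pairs called in all 6 samples lay at percentiles from 1.01 to 46.7. The peak at Stap2/Mpnd lay at percentiles 16.5, 12.6 and 6.73 in WT and 10.3, 2.77 and 1.01 in cKO samples. Sec24a/Sar1b, which both encode parts of the COPII coat that carries cargo out of the endoplasmic reticulum, lay between 7.03 and 40.1. Sqstm1, an autophagy receptor, and Mgat4b, a glycosyltransferase, shared a peak between 26.8 and 46.7. Nudt22/Trpt1 lay between 33.8 and 46.2 and Lrrc74b/P2rx6 between 13.3 and 46.5.

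**Figure D4:**
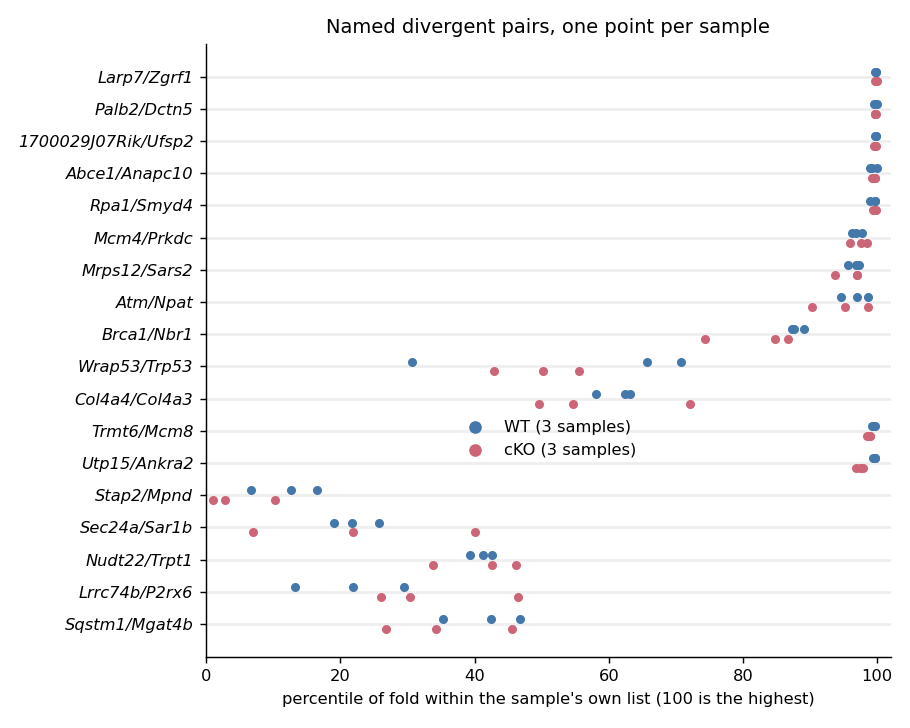
Percentile of fold within the sample's own list for 18 named pairs, one point per sample (WT above, cKO below the line of each pair). The 5 pairs with the strongest peaks sit above 98.8 in every sample, and the 5 weakest below 47.

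The share of genes in pairs differed between lists. By lists of symbols, 33 of 119 DNA replication and repair genes (27.7%) had a divergent partner, as did 27 of 79 histone genes (34.2%), 18 of 78 mitochondrial ribosome genes (23.1%), 23 of 100 genes of the respiratory complexes (23.0%) and 45 of 216 transcription and mRNA processing genes (20.8%), against 6.96% of all genes. The shares were 14.8% for cell cycle genes, 13.3% for mitochondrial import, 11.5% for cytosolic translation, 11.2% for proteasome and ubiquitin, 5.54% for zinc finger factors and 3.64% for collagens. None of 35 absorptive, 52 secretory or 22 stem cell and Wnt genes listed was in a pair. The lists are partial and the symbols were matched by pattern.

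All 34 pairs with a replication or repair gene were called in all 6 samples, near the 94.1% of all pairs. Their median percentile was 93.1 ± 1.89, and 14 of them (41.2%) held an ETS-type match, against 28.3% of all pairs. All 18 pairs with a mitochondrial ribosome gene, all 23 with a respiratory gene and all 44 with a transcription or mRNA processing gene were called in all 6 too, again beside 94.1% of all pairs, with median percentiles of 90.6 ± 0.89, 93.4 ± 1.10 and 91.9 ± 0.64. Among them were Ptcd2/Mrps27 at percentiles of 98.7 to 99.8, Sdha/Ccdc127, with a subunit of succinate dehydrogenase, at 98.0 to 99.7, and Serac1/Gtf2h5, with a subunit of TFIIH, at 98.8 to 99.6. Of 21 pairs with a cell cycle gene 20 were called in all 6. Aurka/Cstf1, with the mitotic kinase Aurora A, lay at 94.8 to 98.0, and Hscb/Chek2, with a checkpoint kinase, at 95.02 to 97.26. Pairs with a proteasome or ubiquitin gene had a lower median, 82.0 ± 2.90.

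Histone pairs stood lowest of the lists with several pairs. Of 14 pairs 11 were called in all 6 samples and 3 in none, and 0 held an ETS-type match. The median percentile of the called ones was 79.2, 76.2 and 74.8 in WT 1 to 3 and 62.3, 76.8 and 56.9 in cKO 1 to 3, with the low values in cKO 1 and cKO 3. Their 5′ ends lay a median of 259.5 bp apart. Hist1h2ah/Hist1h2bk reached 73.9 to 93.4. Hist1h2an/Hist1h2bp, printed above and picked outside the naming rule after its values were seen, lay at 86.1, 79.0 and 82.2 in WT and 66.8, 76.8 and 70.4 in cKO samples. Histone genes are near-identical copies, so reads may be split or dropped among them and these values are uncertain. Of the 3 uncalled pairs, Hist1h2bq/Hist1h2ao and Hist1h2ap/Hist1h2br are CpG-rich and Hist1h2ba/Hist1h2aa, whose genes are known from the testis, is not.

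Ranks, and for some matches called shares, differed with the matches a pair held. Pairs with an ETS-type match were called in 98.6% of cases in every sample and had a median percentile of 91.0 ± 1.01, against 92.9% ± 0.33 and 87.9 ± 1.72 without one. The 83 pairs with an E2F-type match had a median percentile of 92.6 ± 1.11. The 33 pairs with a TATA match had one of 76.0 ± 3.42, against 89.3 ± 1.47 without. They include histone pairs such as Hist1h2ah/Hist1h2bk and Hist1h2bh/Hist1h3f, and pairs with a histone gene had a median percentile of 71.0 ± 9.12. The 84 pairs with the ARID3 letters lay at 87.4 ± 1.22, against 89.0 ± 1.58 without, and 17 pairs with an AP-1-type match at 77.3 ± 3.78. Called shares were close with and without an E2F-type match (94.2% and 94.5%) and a TATA match (93.9% and 94.5%). Of the 208 pairs with an ETS-type match 198 were CpG-rich. CpG-rich pairs were called at 97.7% and others at 72.9%, and the values here were not split by composition or by histone genes. These are descriptions and were not tested.

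Of the 38 uncalled pairs 14 were CpG-rich and 24 were not. Several hold a gene of other tissues, such as Smyd1/Cd8b1 (muscle and T cells), Kirrel2/Nphs1 (kidney podocytes), Pecam1/Milr1 (endothelium and mast cells) and Dmrtc2 with Lypd4 (testis). Others hold widely used genes: Nfya/Oard1, with a subunit of the NFY factor, Slc25a32/Dcaf13, Pcmt1/Lats1, Zcchc17/Snrnp40, Mfsd8/Abhd18 and Tbc1d10c/Ppp1ca. These 6 and Smyd1/Cd8b1 were among 14 uncalled pairs that lay in a stretch of over 100 kb holding no peak in any list. Of the 14, 7 were CpG-rich, and the stretch around Smyd1/Cd8b1 was 147 kb. A pair can lie near the edge of such a stretch. The nearest peak was at least 175462 bp from Nfya/Oard1, in a stretch of 675 kb, but 17479 bp from Zcchc17/Snrnp40, in a stretch of 192 kb. Whether such stretches were scored is unknown, so these pairs cannot be called closed. The imprinted pair Sgce/Peg10, also in such a stretch (146 kb), had a peak 412 to 1572 bp beyond its region. Outside such stretches, Rnf151/Rps2 had its nearest peaks 1155 to 1310 bp from the region. The imprinted pair Peg3/Usp29 was called in 1 WT and 2 cKO samples. The other 4 pairs called in some samples were Bend6/Dst (1 WT, 2 cKO), Obsl1/Inha (2 WT, 1 cKO), Patl2/Terb2 (1 cKO) and Odf3l1/Cspg4 (2 WT, 3 cKO).

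Loss of Arid3a changed no divergent promoter past the test's threshold. No pair was called in all 3 cKO samples and no WT sample, or the reverse. Among single promoters 14 (0.0772%) and 2 (0.011%) were. For ranks, overlapping peaks of the 6 lists were merged, and the percentiles of 32748 merged peaks present in all 6 samples were turned into normal scores and compared with limma. Of these 0 passed a Benjamini-Hochberg adjusted p of 0.05 (0.0% of those tested), and 1964 (5.997%) had an unadjusted p below 0.05. They included 672 peaks over 692 of the pairs, of which 0 passed and 16 (2.38%) had an unadjusted p below 0.05, 3 higher and 13 lower in cKO samples. The lowest adjusted p among them was 0.776. The test had 3 samples against 3, and a p that misses the threshold does not show that the genotypes are alike.

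In direction, more pairs ranked lower than higher in cKO samples. The score was lower in 475 and higher in 197 of the 672 peaks, with a median difference (cKO minus WT) of −0.12 on the normal score scale, against −0.0047 over all 32748 peaks. All cKO values lay below all WT values at 57 peaks (8.48%, against 7.04% of all peaks tested) and above them at 15 (2.23%, against 4.66%). The shift went with the samples cKO 1 and cKO 3: the median percentile of pairs was 89.48, 90.09 and 90.03 in WT 1 to 3 and 86.95, 89.99 and 86.94 in cKO 1 to 3. Those samples also had the widest peaks, and the part of peak width in the ranks was not tested. The genotype means of 89.9 ± 0.34 and 88.0 ± 1.76 differed by −1.91 points (exact permutation p = 0.2, adjusted 0.333 over 5 genotype measures; 3 against 3 cannot go below 0.1). The size depended on list length and on 1 sample. With every list cut to the length of the shortest the difference was −3.43 points (84.4 in cKO against 87.9 in WT samples), and without cKO 2 it was −2.92. At single promoters the means were 82.5 ± 0.97 and 80.8 ± 1.63, a difference of −1.64 points, close to the −1.91 at pairs. The shift was thus not particular to pairs. Lower and higher scores were not counted for single promoters. When peaks were ranked by −log10 q in place of fold, the difference at pairs was 0.418 in the other direction.

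**Figure D5:**
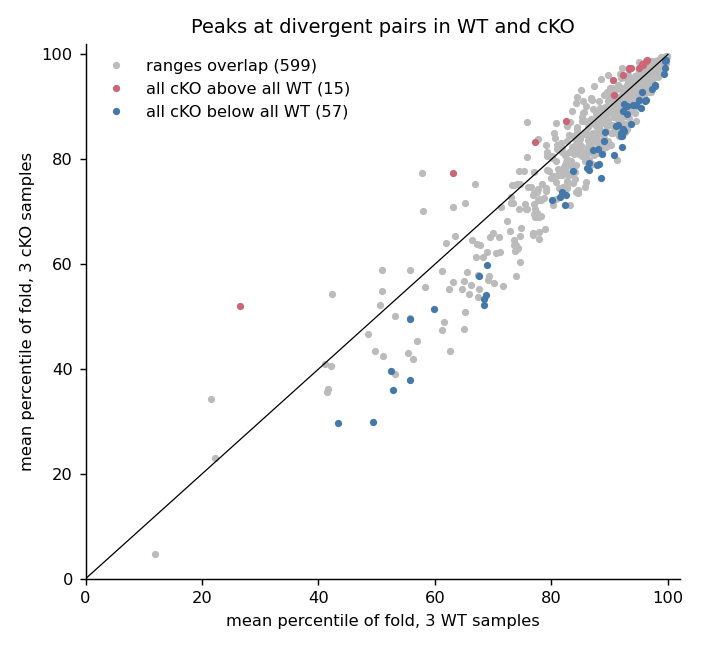
Mean percentile of fold in the 3 WT and 3 cKO samples for 671 merged peaks over pairs called in all 6 samples. Red points (15) have all cKO above all WT values of the merged peak, blue points (57) all cKO below all WT values, and grey points (599) ranges that overlap. More points lie below the diagonal than above it.

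With 3 samples against 3 no genotype measure of this kind could reach 0.05, whatever its size. The pairs called were 94.4% ± 0.24 in WT and 94.6% ± 0.27 in cKO samples (difference 0.136 points, exact permutation p = 0.7). It was 0.272 points without cKO 2 and 0 without WT 1 or without cKO 1. Median width was 1232 ± 20.6 and 1305 ± 70.1 bp (difference 72.7 bp, exact permutation p = 0.2, and 113 bp without cKO 2), and at single promoters it was 1064 ± 34.8 and 1136 ± 77.7 bp. The share with both 5′ ends in 1 peak differed by 0.438 points (exact permutation p = 0.4), by 0.805 without cKO 2, by 0.221 without cKO 3 and by 0.288 without cKO 1. The summit lay between the 5′ ends in 38.4%, 39.2% and 38.5% of called pairs in WT 1 to 3 and in 31.8%, 35.5% and 35.7% in cKO 1 to 3. The groups did not overlap, and the difference of −4.33 points had the smallest p that 3 against 3 allows (exact permutation p = 0.1, adjusted 0.333). Split by distance, they were apart only at 101 to 300 bp (48.2% to 49.3% in WT, 36.9% to 43.5% in cKO samples). In the other distance bins the groups overlapped. With pairs whose 5′ ends overlap added, the difference over all pairs was −1.70 points (40.7% in cKO against 42.4% in WT samples). Summits of single promoters lay downstream of the 5′ end in 62.3% ± 1.28 and 64.7% ± 1.61. Of 691 pairs called in all 6 samples, 5 had the summit in the gap in all WT and no cKO samples. The reverse held for 0 pairs, and at 279 the summit was in the gap in only some samples. The 5 were Tecr/Dnajb1, Chtf8/Utp4, Atp5h/Kctd2 and 2 annotations of Pms1, a mismatch repair gene, with Ormdl1 and with Gm28778. Both Pms1 entries had the same summits. Some shifts were small: at Tecr/Dnajb1, with a gap of 222 bp, the summit lay at 226 bp in cKO 2 and cKO 3.

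Of the pairs with the smallest unadjusted p, Utp15/Ankra2 ranked lower in cKO samples. Utp15 is a ribosome biogenesis factor. Its percentiles were 99.7, 99.6 and 99.4 in WT and 97.4, 97.9 and 96.8 in cKO samples, a score difference of −0.68 ± 0.18 (SE, limma adjusted p = 0.776). Idh1/Pikfyve, an isocitrate dehydrogenase and a phosphoinositide kinase, lay at 99.2, 99.3 and 99.4 in WT and 98.7, 94.7 and 95.5 in cKO samples. Rmnd1/Armt1 lay at 89.0, 88.8 and 87.9 in WT and 76.1, 79.5 and 74.0 in cKO samples. In the other direction, Zcchc3/6820408C15Rik lay at 17.9, 32.8 and 28.6 in WT and 65.1, 33.7 and 57.2 in cKO samples (0.69 ± 0.25, limma adjusted p = 0.776). St5/Akip1 lay at 94.5, 96.6 and 97.7 in WT and 99.5, 98.9 and 97.8 in cKO samples. The groups did not overlap at any of these 5 pairs. They were picked for a small p between genotypes, so this separation largely follows from the choice. Of all peaks tested, 7.04% had all cKO below all WT values and 4.66% had them above.

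Among the 32 distinct peaks of replication and repair pairs, 19 scored lower and 13 higher in cKO samples, with a median difference of −0.08 against −0.12 over all pairs. All cKO values lay below all WT values at 7 (21.9%, against 8.48% of pair peaks and 7.04% of all peaks tested), among them Trmt6/Mcm8, Abhd12/Gins1, Pxmp2/Pole, Lig4/Abhd13, Brca1/Nbr1 and Brix1/Rad1, and above them at 1300017J02Rik/Topbp1. Lig4, the ligase of end joining, and Abhd13 lay at 61.5, 42.3 and 54.5 in WT and 37.2, 38.3 and 32.2 in cKO samples. Brca1/Nbr1 lay at 89.1, 87.6 and 87.3 in WT and 74.3, 84.8 and 86.7 in cKO samples. Topbp1, an activator of the ATR kinase, was at 90.4, 94.5 and 95.2 in WT and 97.6, 96.6 and 97.4 in cKO samples. None of these 8 had an unadjusted p below 0.05. At the 10 distinct peaks of histone pairs the score was lower in cKO samples at all 10, where 475 of all 672 pair peaks were lower, with a median difference of −0.33. At 3 of the 10 all cKO values lay below all WT values, beside the 7.04% of all peaks tested. The shift lay in cKO 1 and cKO 3, whose median percentiles at histone pairs were 62.3 and 56.9, while cKO 2, at 76.8, lay among the WT samples. None had an unadjusted p below 0.05.

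Of 20 peaks of cell cycle pairs 18 scored lower in cKO samples (median difference −0.17), and at 1 of them the groups did not overlap. Of 21 peaks of cytosolic translation pairs 18 scored lower (−0.21), none without overlap, and 1 lay higher in all cKO samples. The lower scores numbered 30 of 44 for transcription and mRNA processing, 12 of 18 for the mitochondrial ribosome, 14 of 23 for the respiratory complexes, 15 of 23 for proteasome and ubiquitin, 3 of 4 for mitochondrial import and 11 of 19 for zinc finger factors. All cKO values lay below all WT values at 2, 2, 1, 0, 0 and 3 of these. Over all pairs 475 of 672 peaks scored lower. There all cKO values lay below all WT values at 8.48% of peaks, against 7.04% of all peaks tested. They lay above at 2.23%, against 4.66% of all peaks tested. Differences between lists were not tested.

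The largest negative differences in mean percentile among pairs whose genotypes did not overlap were at Duox2/Duoxa2 and Gfer/Noxo1, named after their values were seen. They were picked by this difference, so the separation and its size largely follow from the choice. All cKO values lay below all WT values at 7.04% of all peaks tested. At both pairs the cKO sample listed in the middle lay nearest WT (38.5 and 48.0), as in the shift over all pairs. Whether oxidase genes differ from other genes was not tested. Duox2/Duoxa2, an epithelial oxidase that makes hydrogen peroxide and the factor that matures it, lay at 43.8, 50.2 and 54.2 in WT and 26.6, 38.5 and 24.3 in cKO samples (score difference −0.52 ± 0.20, limma adjusted p = 0.776). Gfer/Noxo1, with an organizer of the epithelial NADPH oxidase NOX1, lay at 53.6, 62.6 and 50.8 in WT and 33.7, 48.0 and 32.3 in cKO samples (limma adjusted p = 0.776).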

How the data were processed

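The authors tagmented nuclei from intestinal crypts in 3 WT and 3 cKO samples. Their reads went through an nf-core workflow for ATAC-seq, with alignment to GRCm38, filtering, removal of blacklisted regions and narrow peaks called by MACS2 in each sample separately. No control library was named. The deposited lists give for each peak a score (10 times −log10 q), a fold (a ratio of summit pileup over local background), −log10 p and −log10 q values and the offset of the summit. Folds and q values were used only as ranks within a list or as a filter.

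Groups follow the genotype label, and replicates are the samples labelled 1 to 3. The labels do not say whether a sample pools animals, so p-values measure the spread between these samples. Peaks outside chromosomes 1 to 19, X and Y were dropped. A region of a single promoter ran from 200 bp downstream of the 5′ end to 200 bp past the median distance between paired 5′ ends upstream, so that both classes had a median length of 529 bp. Sequences came from GRCm38.p6. Classes were compared within samples over all 64 swaps of the class labels and genotypes over all 20 assignments, two-sided, with Benjamini-Hochberg adjustment over 4 and 5 measures. Ranks were tested with limma 3.58.1 (R 4.3.3) without a replicate block, over peaks merged at an overlap of 1 base. The statistics were tested on simulated data. Python 3.11.15, numpy 2.4.6, pandas 2.3.3, scipy 1.17.1, pysam 0.24.0 and matplotlib 3.10.9 were used. Counts of pairs carry no interval for reads, since read numbers were not used here.

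Pairs were named by a rule: textbook pairs, the 5 highest and 5 lowest by percentile, the 3 smallest p in each direction, the 2 highest of each gene list and list members not called in all 6 samples. A few pairs that the rule names stay in all counts but are not reported here. The pairs, lists and tests were chosen with earlier results of these data known. The alternatives tried were only peaks with −log10 q of 5 or more, lists cut to the length of the shortest, a limit of 500 bp, 446 pairs with overlapping 5′ ends added, pairs with histone genes or shared regions left out, a peak over 50% of the region, windows of 200 bp either side of each 5′ end, 16315 single promoters with no gene of any biotype nearby, CpG-rich regions, ranks of −log10 q, each sample left out and a replicate block. Leaving out stretches of over 100 kb without a peak was chosen after seeing the data.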

Additional observations from a re-analysis of the deposited data

How the results depend on the processing

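Of 186 alternative values of 12 results, 156 kept their direction and their side of the threshold. For the 5 genotype measures p could not go below 0.1, so their side was fixed and only their direction could change. Counts of pairs called in 1 genotype have no threshold. The tally is therefore no measure of how robust these results are. With each sample left out in turn, the class differences ranged from 40.5 to 41.3 percentage points in the share called, 167 to 172 bp in width, 7.08 to 7.45 in percentile and 0.398 to 0.491 points in the share with 2 or more peaks. Their p was 0.0625 each time, the smallest that 5 samples allow by exact permutation, so this says nothing about stability of the calls. The difference in the share with 2 or more peaks was −0.157 with 5′ ends 500 bp or less apart, −0.063 with windows of 200 bp either side of each 5′ end and 0.136 (exact permutation p = 0.0625) among CpG-rich regions. It could not be computed with a peak required over 50% of the region, since 2 peaks cannot both meet that. The genotype difference in percentile was 0.418 when peaks were ranked by −log10 q, and that in both 5′ ends in 1 peak was −0.036 with a peak over 50% of the region. With the pairs with overlapping 5′ ends added, 1 pair, Il31/Lrrc43, was called in 3 cKO and 0 WT samples. The difference in called share was 0.254 with them and 0.590 with a peak over 50% of the region, and that in both 5′ ends in 1 peak was 0.920 with them and 0.0556 at 500 bp or less. The difference in percentile was −3.43 with lists of equal length, and that in summits between the 5′ ends was −1.70 with overlapping 5′ ends added. The cause of these changes was not tested. With each sample left out in turn, the genotype differences ranged from 0 to 0.272 points called, 52.2 to 113 bp, −2.92 to −1.396 in percentile, 0.221 to 0.805 points with both ends in 1 peak and −5.02 to −3.03 points of summits between them.

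With a replicate block over the numbers in the sample titles, the 5 genotype differences were the same in value, 0.136, 72.7, −1.91, 0.438 and −4.33, with exact p of 1, 0.25, 0.25, 0.5 and 0.25, where 3 pairs cannot go below 0.25. By limma with the block 0 of 672 peaks passed and 7 had an unadjusted p below 0.05. The deviations of same-numbered WT and cKO samples correlated at −0.272, −0.0186 and 0.125, and those of other combinations at −0.328 to 0.308. Deviations from a mean of 3 samples constrain each other, so these values cannot show whether the numbers pair the samples. The labels do not say what the numbers mark. In all limma alternatives 0 peaks over pairs passed, with lowest adjusted p of 0.298 to 1.00, and the count with an unadjusted p below 0.05 was 5 to 84, the highest without cKO replicate 2. Depth limits what can be said of uncalled pairs, since read numbers were not used here.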
